A study of Mus musculus with 9 samples.

Results

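The collagen genes were followed in livers of mice with and without the macrophage scavenger receptor Msr1 after a long fatty diet. Members were the genes whose symbol is Col, a number, the letter a and a number, and 32 of the 17442 genes listed in the deposited table met that rule. They were sorted by the kind of structure their protein forms into 9 fibrillar collagens, 5 basement membrane collagens (the collagen IV chains) and 18 others. The study sequenced liver RNA of 9 male C57BL/6 mice, each 1 library, and all 9 had been fed a high fat-cholesterol diet for 16 weeks and carry the label NAFLD (non-alcoholic fatty liver disease). Of these, 4 were Msr1+/+ (wild type 1 to 4) and 5 were labelled Msr1-/- (Msr1-/- 1 to 5). The labels give no age and do not say how the Msr1 allele was made, and no group on another diet was analysed here. The comparison asked how collagen RNA differed between the genotypes on this diet.

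Collagens are matrix proteins whose chains wind in groups of 3 into a triple helix. Fibrillar collagens (I, III, V and their relatives) pack side by side into the tensile fibres that accumulate in scar tissue, collagen IV forms the sheet of basement membranes, and the other classes decorate fibrils, form beaded filaments or span the cell membrane. In the injured liver the fibrillar chains are known to come mainly from hepatic stellate cells and portal fibroblasts that have become myofibroblasts, while collagen XVIII is also made by hepatocytes.

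The helix is written in the coding sequence as a long series of Gly-X-Y repeats, because only glycine fits inside it, and the length of that series sets the fibrillar chains apart from the rest. The stretches below come from GENCODE M21 transcripts (GRCm38) and illustrate an unbroken series and the end of one. Their places were chosen for this, so the stretches do not compare the classes, and the lengths given after them do. Each runs 5′ to 3′ over 72 bases, with the glycine codons in capitals and codons counted from 1 at the start codon. The first 5 open the longest unbroken series of a fibrillar chain, where glycine returns at the same place in each repeat. The last 2 start with the final 12 codons of the longest series of Col4a1 and Col18a1 and go on for 12 codons past it, where the spacing breaks.
Col1a1, codons 168 to 191: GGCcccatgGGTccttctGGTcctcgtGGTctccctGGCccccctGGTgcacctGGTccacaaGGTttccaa
Col3a1, codons 164 to 187: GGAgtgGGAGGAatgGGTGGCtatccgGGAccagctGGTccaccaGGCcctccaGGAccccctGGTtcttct
Col5a2, codons 211 to 234: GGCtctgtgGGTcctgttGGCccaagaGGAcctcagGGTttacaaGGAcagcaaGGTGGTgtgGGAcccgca
Col5a3, codons 478 to 501: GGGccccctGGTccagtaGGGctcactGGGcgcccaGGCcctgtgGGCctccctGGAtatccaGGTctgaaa
Col27a1, codons 673 to 696: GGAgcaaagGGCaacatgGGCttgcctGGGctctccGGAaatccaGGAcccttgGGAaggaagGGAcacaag
Col4a1, codons 151 to 174: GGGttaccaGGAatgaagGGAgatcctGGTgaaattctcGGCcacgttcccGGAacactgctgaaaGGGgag
Col18a1, codons 784 to 807: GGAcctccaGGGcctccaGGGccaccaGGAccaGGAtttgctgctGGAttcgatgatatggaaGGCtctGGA
The longest unbroken series held 338 repeats in Col1a1, 339 in Col1a2, 344 in Col3a1, 338 in Col5a1, 339 in Col5a2, 337 in Col5a3 and 338 in Col11a2. It was shorter in the other fibrillar chains, with 217 repeats in Col27a1 and 216 in Col24a1. In Col4a1 it held 40 repeats and in Col4a2 66, and the remainder of their helix was split over 22 and 24 series of 4 or more repeats in all. Col18a1 had 30 repeats in its longest series and Col14a1 had 32. By this length the 5 collagen IV chains (39 to 66 repeats) lay inside the range of the 18 others (30 to 113).

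Depth was similar in all livers, with 15006773 to 18238932 reads recovered from the normalised values, and 1 liver stood apart. On the first principal component of all tested genes (41% of the variance) wild type 3 lay at -88.74, and the other 8 livers lay between -8.3 and 27.61. Results are therefore given with and without it. Hepatocyte genes were high in each liver (summed level of Alb, Apoa1, Ttr, Serpina1a and Cps1 between 1275213, in wild type 3, and 2234002), so the labelled tissue matched its markers. Msr1 itself (chromosome 8, 39581685 to 39642673 in GRCm38, minus strand) stood at 256, 202, 460.5 and 194 in wild type 1 to 4 and at 157, 153, 209, 186 and 172 in Msr1-/- 1 to 5. The ranges overlapped, and the difference of -0.58 ± 0.24 had a limma adjusted p of 0.264 (two-sided exact permutation p = 0.0476), or -0.31 ± 0.15 without wild type 3 (adjusted p = 0.261). Msr1 thus did not pass the test, and the genotypes are taken from the labels, since the deleted exons are not given in the sources used here.

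No collagen gene passed the test for a difference between the genotypes. All values are read counts divided by the liver's size factor, and differences are limma's mean differences of log2(value + 1), Msr1-/- minus wild type, with SE, n = 4 and n = 5. This scale understates changes of low genes. With a mean of 10 or more, 21 of the 32 collagen genes were tested, and 0 of 21 had an adjusted p under 0.05 in limma, where 1.37% of the 12937 genes tested did (177 genes, 86 higher and 91 lower in Msr1-/-). That background count ran from 36 without Msr1-/- 2 to 629 without wild type 3, and the collagen count was 0 in all 9 such fits. At an unadjusted p under 0.05 there were 3 collagen genes (Col5a3, Col5a1 and Col11a2), 14.3% against 15.3% of all tested genes. On the recovered reads edgeR called 185 genes (1.43%), and DESeq2 called 773 (6.0% of the 12881 genes to which it gave an adjusted p). Neither called a collagen gene, but DESeq2 gave no adjusted p for Col1a2 and Col3a1. The genotypes overlapped in each of the 21, where 7.29% of all tested genes had no overlap.

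The sign of the family's median depended on wild type 3. The median log2 difference was -0.36 over the 21 collagen genes, 14 of them below 0, beside 0.02 over all tested genes. By class it was -0.56 for the 8 fibrillar, -0.12 for the 2 basement membrane and -0.16 for the 11 other genes. In the 8 livers other than wild type 3 the median over the 21 genes was 0.07, with 9 below 0, and the class medians were 0.06, 0.15 and -0.11, beside 0.00 over all tested genes. In that fit 0 of 21 were again called, against a background of 4.91%, and 4 of 21 had an unadjusted p under 0.05 (19.0% against 21.5%). The genotypes then did not overlap in 2 of 21, Col11a2 and Col25a1 (9.52%, against 14.2% of all tested genes).

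**Figure D1:**
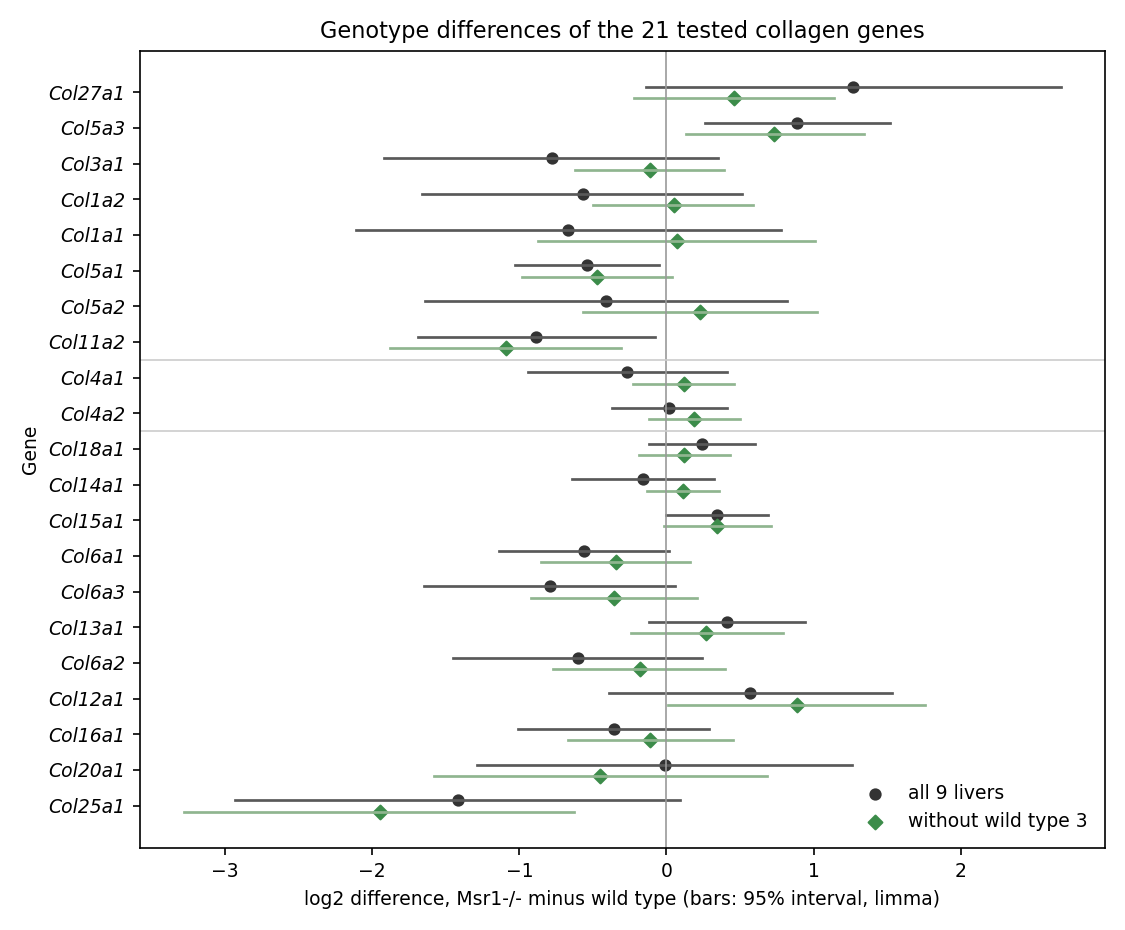
Log2 difference (Msr1-/- minus wild type) of each of the 21 tested collagen genes, with limma's 95% interval as a bar, in all 9 livers (black circles) and without wild type 3 (green diamonds). Grey lines part fibrillar, basement membrane and other collagens, each ordered by mean level. Leaving out wild type 3 moved Col1a1 from -0.67 to 0.07 and Col27a1 from 1.27 to 0.46, and Col5a3 from 0.89 to 0.73.

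Among the fibrillar collagens, the chains of collagens I and III and the chain Col5a2 had 1 shared pattern, a single high wild-type liver. Col1a1 (chromosome 11, 94936224 to 94953042 in GRCm38, plus strand) encodes the main chain of collagen I, the chief protein of scar. Its level was 48.1, 57.0, 563 and 133 in wild type 1 to 4 and 127, 68.5, 73.1, 117 and 32.1 in Msr1-/- 1 to 5. The difference was -0.67 ± 0.66 (95% interval -2.11 to 0.78, limma adjusted p = 0.715). Wild type 3 stood 7.10 times above the mean of the other 3 wild-type livers. Of those 3, wild type 1 and 2 lay inside the Msr1-/- range and wild type 4 lay just above it. Col1a2 (chromosome 6, 4504814 to 4541544, plus strand), the second chain of the same trimer, had the same pattern. It stood at 115, 129.8, 788 and 183 in wild type and 174, 158, 137, 196 and 86.2 in Msr1-/-. The same liver was highest, at 5.52 times the mean of the other wild-type livers, and the difference of -0.57 ± 0.49 had a limma adjusted p of 0.661. The 2 chains kept a ratio of Col1a1 to Col1a2 between 0.417 and 0.725 in wild type and between 0.372 and 0.732 in Msr1-/-, and the genotypes overlapped.

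Col3a1 (chromosome 1, 45311538 to 45349706, plus strand), the collagen III chain that makes the fine reticulin fibres of the liver, had the highest level per kb of transcript of these 4 genes. Its read count stood at 389, 395, 2916 and 620.4 in wild type and at 504, 434, 391, 575 and 273 in Msr1-/-. Wild type 3 lay 6.23 times above the mean of the other wild-type livers, and the other 8 livers lay between 273 and 620.4. The genotype difference was -0.78 ± 0.52 (limma adjusted p = 0.539, exact permutation p = 0.349), and without wild type 3 it was -0.11 ± 0.23 (interval -0.62 to 0.39). Col5a2 lies next to Col3a1 on the opposite strand (chromosome 1, 45374321 to 45503282) and encodes a chain of collagen V, which sits inside collagen I fibrils and limits their width. It stood at 22.5, 23.2, 172 and 45.5 in wild type and at 30.7, 39.1, 36.5, 58.5 and 17.03 in Msr1-/-. Its pattern was that of its neighbour, with wild type 3 at 5.65 times the mean of the other wild-type livers. Without wild type 3 the differences of Col1a1, Col1a2 and Col5a2 were 0.07 ± 0.43, 0.05 ± 0.25 and 0.23 ± 0.36, with limma adjusted p values of 0.945, 0.936 and 0.765. The 95% interval of Col1a2 then ran from -0.50 to 0.59, and that of Col1a1 from -0.87 to 1.01.

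**Figure D2:**
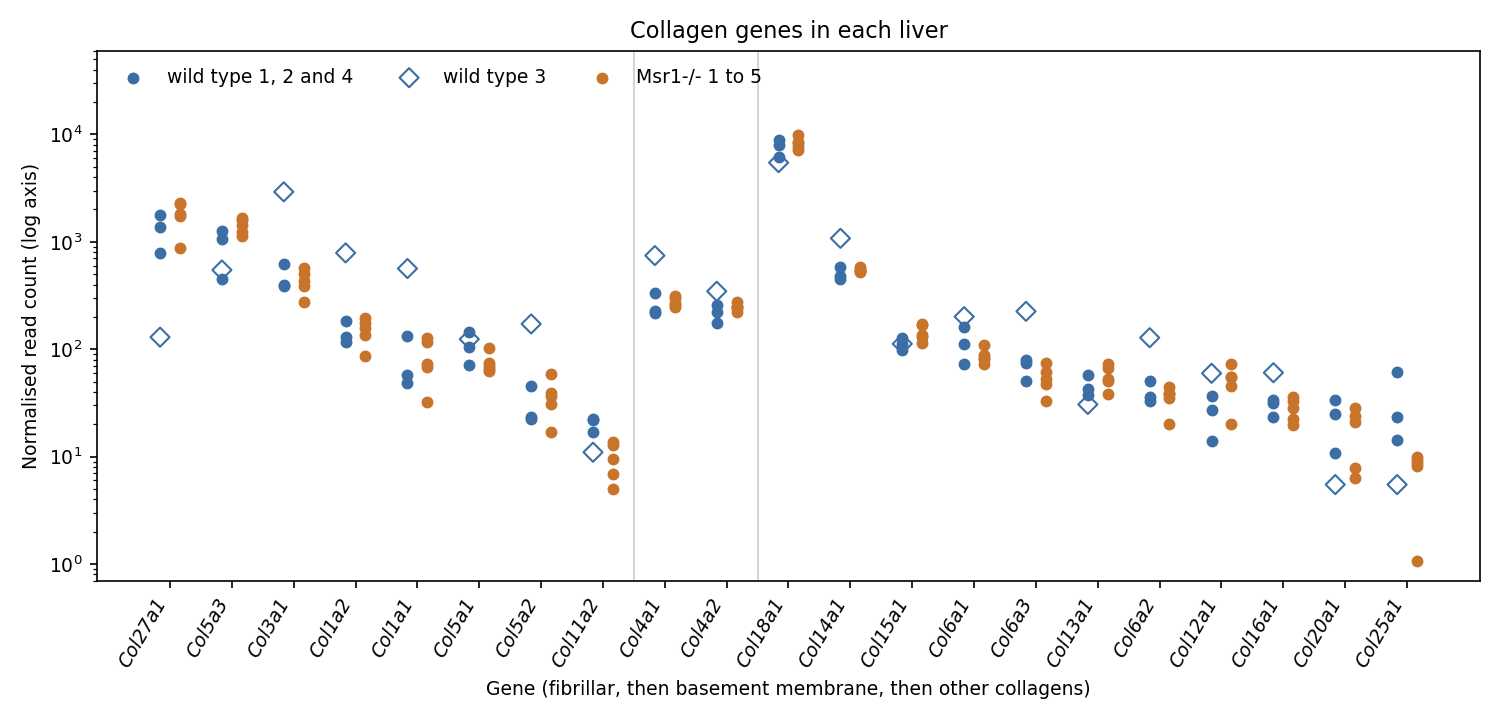
Normalised read count (log axis) of each of the 21 tested collagen genes in every liver, with wild type 1, 2 and 4 as blue circles, wild type 3 as an open diamond and the 5 livers labelled Msr1-/- as orange circles. Grey lines part fibrillar, basement membrane and other collagens. The diamond lies above all other livers in 11 of the 21 genes, among them Col3a1 at 2916, and far below them for Col27a1 at 129.

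Col5a1 and Col5a3, the other 2 chains of collagen V, had differences of opposite sign. Col5a1 (chromosome 2, 27886425 to 28039514, plus strand) is the chain found in most collagen V trimers. Its level was 71.6, 104, 124 and 144 in wild type and 74.2, 69.5, 102, 65.5 and 63.1 in Msr1-/-. Of the wild-type livers only wild type 1 lay inside the Msr1-/- range, and the other 3 lay above it. The difference was -0.54 ± 0.22 (interval -1.03 to -0.05, limma adjusted p = 0.272, exact permutation p = 0.0635). Col5a3 (chromosome 9, 20770050 to 20815067, minus strand) is a less widely used chain. It stood at 446, 1060, 546 and 1263 in wild type and at 1435, 1593, 1679, 1238 and 1137 in Msr1-/-. Wild type 4 lay inside the Msr1-/- range and the other 3 wild-type livers lay below it. This was the smallest adjusted p among the 21, a difference of 0.89 ± 0.28 (interval 0.26 to 1.52, limma adjusted p = 0.157, exact permutation p = 0.0476, where the splits of 9 livers allow 0.0159 at the lowest). Over the fits that left out 1 liver each, it lay between 0.64 and 1.14 with no adjusted p under 0.0652.

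The 2 chains were also set against each other within a liver. Reads of Col5a3 per read of Col5a1 came to 6.22, 10.2, 4.41 and 8.76 in wild type (7.38 ± 2.57, SD, n = 4) and to 19.3, 22.9, 16.4, 18.9 and 18.02 in Msr1-/- (19.1 ± 2.40, SD, n = 5). The highest wild-type ratio was below the lowest of the livers labelled Msr1-/-. This ratio was singled out after its values were seen and has no test, and it was the only 1 of 7 ratios computed between collagen genes whose genotypes did not overlap. The share of non-overlapping ratios among all gene pairs was not computed. The other ratio within collagen V, Col5a1 per Col5a2, overlapped, at 3.19, 4.5, 0.721 and 3.17 in wild type and 2.41, 1.775, 2.8, 1.12 and 3.71 in Msr1-/-. Exons of Col5a1 share 212 bases with genes on the opposite strand (Gm13372 and 2810430I11Rik), and the strand setting of the counting is not given in the sources used here. Col5a1 in wild type 3 stood at 1.16 times the mean of the other wild-type livers, second to wild type 4 and above the 5 livers labelled Msr1-/-. Col5a3 stood there at 0.592 times that mean.

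**Figure D3:**
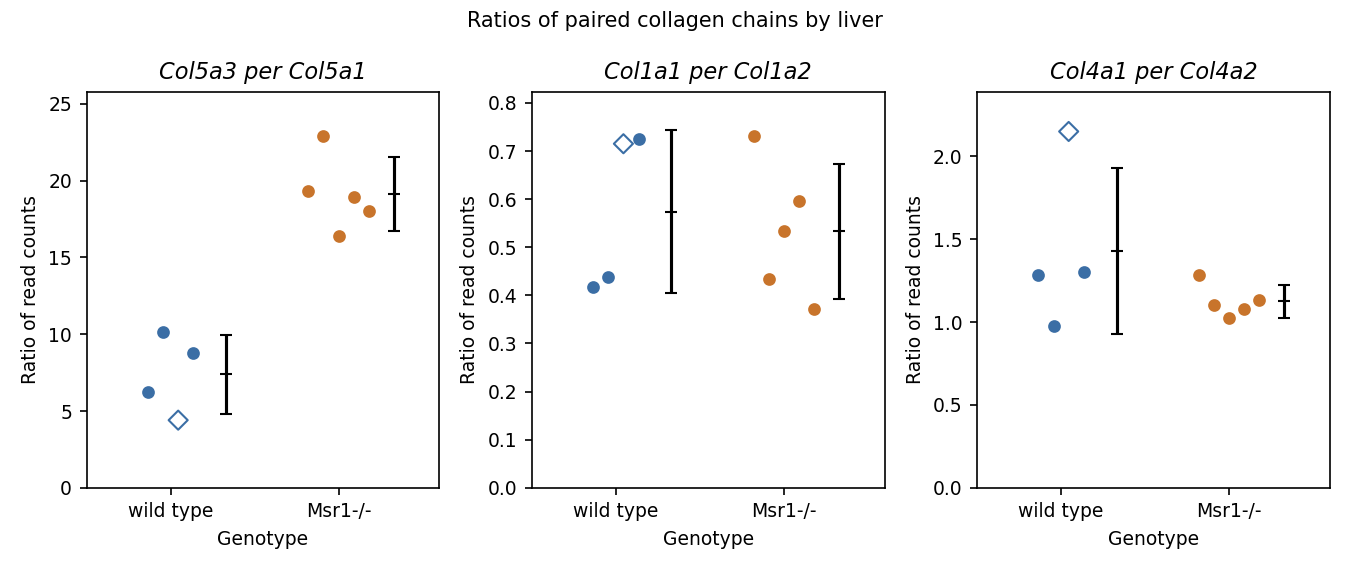
Ratio of normalised read counts between chains that can share a trimer, 1 point a liver (blue wild type, with wild type 3 as an open diamond, and orange Msr1-/-), with mean and SD as bars. Col5a3 per Col5a1 lies between 4.41 and 10.2 in wild type and between 16.4 and 22.9 in Msr1-/-, whereas the ratios within collagens I and IV overlap.

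Col27a1 (chromosome 4, 63214004 to 63334991, plus strand) encodes a fibrillar collagen with a shorter helix, best known from cartilage, and it went the other way from collagens I and III in wild type 3. It stood at 793, 1766, 129 and 1360 in wild type and at 879, 1814, 2252, 2301 and 1747 in Msr1-/-. The lowest liver was wild type 3, at 0.0991 times the mean of the other wild-type livers, and wild type 1 and Msr1-/- 1 were the next lowest. The difference of 1.27 ± 0.64 (interval -0.14 to 2.68, limma adjusted p = 0.387) was 0.46 ± 0.31 without wild type 3 (adjusted p = 0.428). Col11a2, a collagen XI chain known from cartilage, was near the lower limit of the test, at 22.5, 22.2, 10.98 and 17.1 in wild type and 9.54, 6.85, 13.7, 12.9 and 5.01 in Msr1-/-. Only wild type 3 lay inside the Msr1-/- range. The difference was -0.89 ± 0.37 (limma adjusted p = 0.273), and without wild type 3, when the genotypes no longer overlapped, -1.09 ± 0.36 (adjusted p = 0.107). Two-sided exact permutation over all 9 livers gave p = 0.0476 for Col11a2 and 0.127 for Col27a1. Col24a1, the ninth fibrillar gene, had a mean of 8.23 and was not tested.

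Sequence before the start sites is shown for 4 of these fibrillar genes, because Col3a1 and Col27a1 lay on opposite sides of the other livers in wild type 3, and Col5a1 and Col5a3 had genotype differences of opposite sign. Each line gives the 200 bases before the annotated start, 5′ to 3′ on the gene's strand, from RefSeq on GRCm38.p6, and none of them overlaps an annotated exon. Capitals mark matches on either strand to CCAAT (the core of the CCAAT box), to TATAAA (the TATA box) and to GGGCGG (the GC box).
Col3a1, chr1:45311338-45311537, plus strand: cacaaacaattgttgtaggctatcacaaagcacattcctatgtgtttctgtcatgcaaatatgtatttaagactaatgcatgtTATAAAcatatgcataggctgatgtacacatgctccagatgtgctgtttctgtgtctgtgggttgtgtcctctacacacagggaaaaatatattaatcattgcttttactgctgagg
Col27a1, chr4:63215212-63215411, plus strand: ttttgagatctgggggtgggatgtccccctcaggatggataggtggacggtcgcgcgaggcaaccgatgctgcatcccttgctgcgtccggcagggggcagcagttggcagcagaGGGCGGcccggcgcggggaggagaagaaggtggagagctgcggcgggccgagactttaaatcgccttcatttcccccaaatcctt
Col5a1, chr2:27886225-27886424, plus strand: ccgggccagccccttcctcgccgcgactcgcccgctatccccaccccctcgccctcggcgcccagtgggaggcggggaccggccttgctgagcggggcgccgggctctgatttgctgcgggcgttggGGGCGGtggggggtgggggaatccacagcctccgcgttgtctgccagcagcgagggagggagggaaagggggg
Col5a3, chr9:20815068-20815267, minus strand: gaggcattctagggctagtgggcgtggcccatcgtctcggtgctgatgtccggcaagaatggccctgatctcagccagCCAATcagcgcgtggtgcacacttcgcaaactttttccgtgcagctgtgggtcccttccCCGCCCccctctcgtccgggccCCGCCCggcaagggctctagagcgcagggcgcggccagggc
Col3a1 alone of the 4 held TATAAA, 117 to 112 bases before its start, and it held no GGGCGG. The other 3 held GGGCGG, at 85 to 80 bases in Col27a1, at 73 to 68 in Col5a1 and, on the reverse strand, at 63 to 58 and 41 to 36 in Col5a3, which also held CCAAT at 122 to 118. These are matches of letters, and over all 32851 windows of the same length TATAAA was found in 9.96%, GGGCGG in 31.0% and CCAAT in 29.3%. Of the 32 collagen genes, 26 had a promoter entry, and Col12a1, Col14a1, Col1a1, Col4a3, Col5a2 and Col9a3 had none.

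In the basement membrane class the 2 tested genes had small differences and the high level of wild type 3. Col4a1 and Col4a2 encode the 2 chains of the common collagen IV network and lie head to head on chromosome 8 (Col4a1 11198423 to 11312826, minus strand; Col4a2 11312805 to 11449287, plus strand), sharing 22 bases. Their region ends 28.1 Mb before Msr1 on the same chromosome. Col4a1 stood at 226, 217, 744 and 335 in wild type and at 315, 268, 257, 297 and 249 in Msr1-/-. Col4a2 stood at 175, 223, 346 and 257 in wild type and at 245, 244, 250.2, 275 and 220.4 in Msr1-/-. Both were highest in wild type 3, at 2.87 and 1.58 times the mean of the other wild-type livers. The 5 livers labelled Msr1-/- lay close together. The differences were -0.27 ± 0.31 for Col4a1 and 0.02 ± 0.18 for Col4a2, with limma adjusted p values of 0.768 and 0.977 and 95% intervals of -0.94 to 0.41 and -0.37 to 0.41. Wild type 3 held 2.15 reads of Col4a1 per read of Col4a2, and the other 8 livers held between 0.976 and 1.303. Col4a3, Col4a4 and Col4a5, the chains of specialised basement membranes such as that of the kidney filter, had means of 9.57, 5.73 and 8.88 and were not tested.

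**Figure D4:**
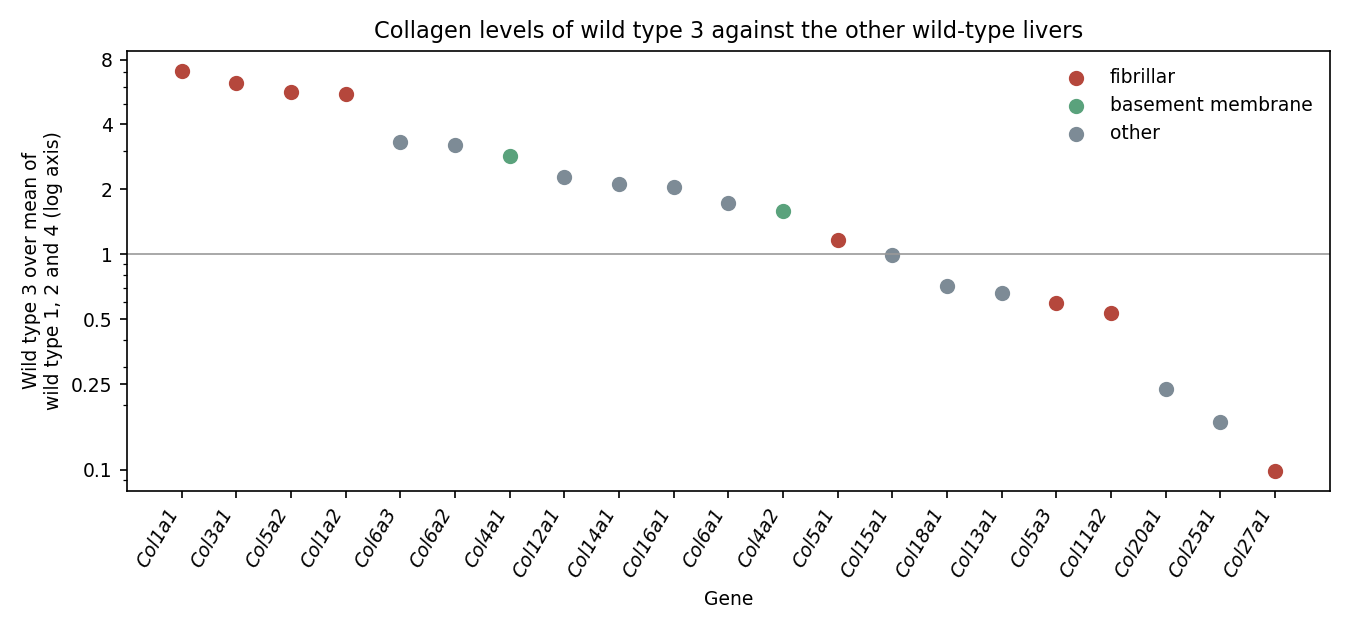
Level of each of the 21 tested collagen genes in wild type 3 divided by the mean of wild type 1, 2 and 4 (log axis), coloured by class and ordered by the ratio. Col1a1, Col3a1, Col5a2 and Col1a2 lie between 5.52 and 7.10, collagen VI and IV chains between 1.58 and 3.31, and Col27a1 at 0.0991.

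The pattern of wild type 3 was graded over the family. It was the highest of the 9 livers in 11 of the 21 collagen genes (52.4%), where it was highest in 26.5% of all tested genes. It was the lowest in 4 (Col27a1, Col18a1, Col13a1 and Col20a1, 19.0% against 25.5%). No other liver was highest in more than 3 collagen genes. Because the values of wild type 3 prompted this count, it is a description.

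Col18a1 led all collagens, in reads and per length. It encodes the protein core of collagen XVIII, a basement membrane proteoglycan whose tail is released as endostatin. It was sorted with the others because the basement membrane class here holds only the collagen IV chains. Col18a1 (chromosome 10, 77052178 to 77166548, minus strand) stood at 6196, 8013, 5451 and 8774 in wild type and at 7194, 7639, 8377, 8428 and 9791 in Msr1-/-. The lowest liver was wild type 3 and the highest Msr1-/- 5, with wild type 2 and 4 inside the Msr1-/- range. The difference was 0.24 ± 0.16 (interval -0.12 to 0.60, limma adjusted p = 0.548).

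Levels can be compared between genes only per length of transcript. Per kb of principal transcript, Col18a1 stood at 1599 in the other 3 wild-type livers, 1138 in wild type 3 and 1729 in Msr1-/-. In the same order of groups, Col27a1 stood at 172, 17.005 and 236, Col5a3 at 151, 89.2 and 232, Col14a1 at 89.2, 190 and 95.9 and Col3a1 at 84.1, 524 and 78.2. Col27a1 and Col5a3 thus came next in Msr1-/- and in the other 3 wild-type livers, and Col3a1 and Col14a1 in wild type 3. Col1a1 reached only 13.4, 94.99 and 14.1. Col18a1 thus held 70.3, 67.8, 44.1 and 67.1% of the collagen signal per kb in wild type 1 to 4 and 65.2, 63.7, 64.2, 64.2 and 72.7% in Msr1-/- 1 to 5. Col1a1, Col1a2, Col3a1 and Col5a2 together held 5.61, 4.39, 30.7 and 6.41% in wild type and 6.49, 4.99, 4.17, 6.16 and 2.60% in Msr1-/-. The make-up of wild type 3 differed from that of the other 8 livers, among which the genotypes overlapped. All collagen genes summed to 13779 in wild type 3 and to between 9466 and 14687 in the other livers, a sum in which Col18a1 is the largest part. Without Col18a1 the sum was 8328 in wild type 3 and 3270 to 6272 in the others. As a share of all reads in the table, collagens were also highest in wild type 3, at 0.103% against 0.0534 to 0.0919%, and the genotypes overlapped.

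**Figure D5:**
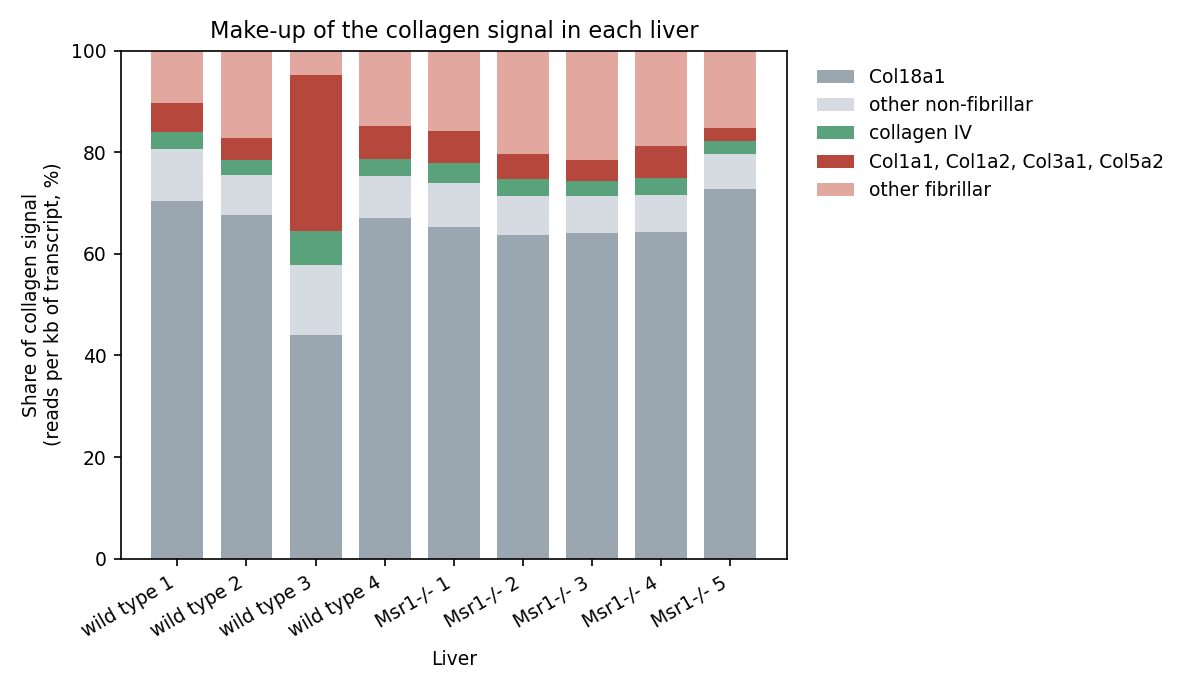
Share (%) of the summed collagen signal, in reads per kb of principal transcript, held by groups of collagen genes in each of the 9 livers. Col18a1 holds 63.7 to 72.7% in 8 livers and 44.1% in wild type 3, where Col1a1, Col1a2, Col3a1 and Col5a2 hold 30.7%.

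Col14a1 and Col15a1 had the most reads of the other collagens after Col18a1 by the mean over all 9 livers, though in wild type Col6a1 had more than Col15a1 (137 against 113). Col14a1, a fibril-associated collagen found on the surface of collagen I fibres, stood at 481, 455, 1076 and 583 in wild type and at 583, 540.2, 533, 540.2 and 526 in Msr1-/-. The high liver was again wild type 3, at 2.13 times the mean of the other wild-type livers, and the remaining 8 lay between 455 and 583. Without it the difference was 0.11 ± 0.11 (interval -0.13 to 0.36, limma adjusted p = 0.605). Col15a1, the relative of Col18a1 in the matrix around vessels and muscle, stood at 126.2, 99.2, 112 and 113 in wild type and at 173, 168, 135, 131 and 114 in Msr1-/-. Here wild type 3 was not apart, at 0.995 times the mean of the other wild-type livers, and 4 of the 5 livers labelled Msr1-/- lay above every wild-type liver. The difference of 0.34 ± 0.16 had an exact permutation p of 0.0317 and a limma adjusted p of 0.327.

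Collagen VI, whose 3 common chains form beaded filaments around cells, shared the high wild type 3 with collagens I and III to a smaller degree. Col6a1 stood at 72.7, 112, 201 and 162 in wild type and at 73.1, 83.2, 88.6, 109 and 81.2 in Msr1-/-. Its neighbour Col6a2 stood at 33.1, 35.9, 128 and 50.3 in wild type and at 20.1, 35.2, 39.3, 38.6 and 44.1 in Msr1-/-. Col6a3, on another chromosome, stood at 50.3, 73.9, 225 and 79.7 in wild type and at 32.9, 47.0, 61.2, 73.7 and 53.1 in Msr1-/-. Wild type 3 lay 1.74, 3.22 and 3.31 times above the mean of the other wild-type livers for the 3 chains. The differences were -0.56 ± 0.26, -0.60 ± 0.38 and -0.79 ± 0.39 (limma adjusted p = 0.347, 0.521 and 0.368), and without wild type 3 they were -0.34, -0.18 and -0.36 (adjusted p = 0.426, 0.738 and 0.458). All 3 were thus below 0 in both fits, and none was called.

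The remaining 5 tested collagens each had a mean under 50 over the 9 livers. Col12a1 and Col16a1, fibril-associated collagens, had means of 34.5 and 37.2 in wild type and 49.4 and 27.7 in Msr1-/-, with limma adjusted p values of 0.606 and 0.639. The transmembrane collagen Col13a1 had means of 42.2 and 56.2 (adjusted p = 0.478), and the fibril-associated Col20a1 had means of 18.7 and 17.5 with a difference of -0.01 ± 0.58 (adjusted p = 0.996). Wild type 3 was above the mean of the other wild-type livers for Col12a1 and Col16a1 and below it for Col13a1 and Col20a1. Col25a1, a transmembrane collagen best known from neurons, stood at 61.0, 23.2, 5.49 and 14.2 in wild type and at 1.06, 8.81, 8.22, 9.35 and 10.02 in Msr1-/-. Its wild-type livers were spread over a wide range, and only wild type 3 lay inside the range of the livers labelled Msr1-/-. The difference was -1.42 ± 0.68 with a limma adjusted p of 0.361. It was -0.87 without wild type 1, the highest liver (limma adjusted p = 0.607), and -0.96 without Msr1-/- 1, the lowest (adjusted p = 0.548). Leaving wild type 3 out gave -1.95 ± 0.61 (interval -3.28 to -0.63, limma adjusted p = 0.0933), and the genotypes no longer overlapped. In that set of 8 livers edgeR (-2.10, adjusted p = 0.042) and DESeq2 (-2.13, adjusted p = 0.00458) called Col25a1 lower, 1 of 21 collagens each, where they called 2.75% and 4.06% of all genes lower. These 2 fits were added after the data were seen.

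The other 11 collagen genes had a mean under 10 and were not tested: Col24a1 among the fibrillar, Col4a3, Col4a4 and Col4a5 in the basement membrane, and Col6a5, Col6a6, Col7a1, Col8a1, Col8a2, Col9a3 and Col23a1 among the others. Their listed values lay between 0 and 25.1 and their means between 2.08 and 9.57, and 6 of them had a read in every liver. The value of 25.1 was Col8a1, a short-chain network collagen, in wild type 3, where the other 8 livers lay between 1.06 and 4.74. Col6a6, an additional collagen VI chain, was the only 1 of the 32 collagens whose genotypes did not overlap (3.12%, against 6.45% of all listed genes). It stood at 8.55, 12.7, 3.92 and 3.79 in wild type and at 0, 2.94, 1.83, 0 and 1.00 in Msr1-/-. These are between 0 and 12 reads, and in a fit with no filter on low genes the difference of -2.0 had a limma adjusted p of 0.103.

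Genes that act on collagen after its RNA is made were read from the same fit by their role. Of the enzymes that hydroxylate and glycosylate the chains, 0 of 12 tested were called (median 0.02), and P4hb, the shared subunit of the prolyl hydroxylases, stood at 21438 ± 2221 and 28649 ± 850.5 (limma adjusted p = 0.147). Of the genes for folding, export and propeptide removal, 1 of 12 rose, where 1.37% of all tested genes were called. This was Mia2, whose product helps bulky cargo such as collagen and lipoproteins leave the endoplasmic reticulum, at 2726 ± 74.7 in wild type and 4117 ± 416 in Msr1-/- (0.59 ± 0.11, 1.5-fold, limma adjusted p = 0.0276, and 0.0116 without wild type 3). Serpinh1, the collagen chaperone HSP47, stood at 272 ± 179 and 207 ± 29.1 (adjusted p = 0.847), with wild type 3 at 2.87 times the mean of the other wild-type livers. Among crosslinking enzymes 0 of 7 were called (median -0.61, and -0.23 without wild type 3), and Lox, the lysyl oxidase that ties collagen fibrils together, had a mean under 10 with 10.98 ± 14.3 and 5.42 ± 3.70. Of the 7 crosslinking genes, 6 were highest in wild type 3.

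The partners and the breakdown of collagen gave no call either. In all 9 livers 0 of 26 collagen-binding matrix genes (median -0.33), 0 of 13 breakdown genes (median -0.18) and 0 of 11 receptors (median -0.54) passed the test, beside a median of 0.02 over all tested genes. Wild type 3 was highest in 20, 11 and 8 of them. With that liver left out the medians were 0.04, -0.00 and -0.32, again with 0 called in each. Mrc2, the receptor that takes up cleaved collagen, stood at 30.9 ± 23.5 and 10.02 ± 1.64 (-1.31 ± 0.40, limma adjusted p = 0.139), and the collagen receptor Lair1 of leukocytes at 95.8 ± 62.1 and 36.7 ± 12.1 (-1.23 ± 0.36, adjusted p = 0.125). Of 28 genes that signal to collagen genes 0 were called (median -0.28, and -0.10 without wild type 3). Tgfb1, the growth factor known best for inducing collagen I, stood at 97.5 ± 52.4 and 73.5 ± 11.5 (adjusted p = 0.715), and Pdgfb, a growth factor for stellate cells, at 23.99 ± 8.91 and 8.77 ± 2.62 (adjusted p = 0.0774). Without wild type 3, 1 of 27 tested was called, the co-receptor Tgfbr3, lower by limma (-0.76, adjusted p = 0.00967). In that fit 4.91% of all tested genes were called in either direction (297 of 12823 lower). Tgfbr3 stood at 169 ± 42.7 and 111 ± 6.44 over all livers.

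Summed markers of the cells that make collagen were highest in the liver where collagens I and III were highest, though not every marker was. In bulk RNA, fewer cells of a type and less RNA per cell cannot be told apart. Markers of activated myofibroblasts summed to 2088 in wild type 3, to between 686.8 and 838.6 in the other wild-type livers and to between 436.5 and 733.2 in Msr1-/-. Of these sums Spp1 (osteopontin), which cholangiocytes also express and which is in their list too, gave 1505 in wild type 3, 551 to 601 in the other wild-type livers and 215 to 488 in Msr1-/- (limma adjusted p = 0.101). Postn (periostin) had a difference of the opposite sign, 0.32 ± 0.25 (adjusted p = 0.621), and 0.61 without wild type 3 (adjusted p = 0.0502). All 5 tested of the 8 markers were highest in wild type 3, and Timp1 and Cdh11 had no read in some liver. Acta2, the smooth muscle actin of myofibroblasts, stood at 33.05 ± 29.6 and 19.3 ± 5.86 (limma adjusted p = 0.937). It was nearly as high in wild type 4 (56.9) as in wild type 3 (60.4), and stood at 6.42 and 8.44 in wild type 1 and 2. Portal fibroblast markers summed to 753.1 in wild type 3, 160.4 to 261.8 in the other wild-type livers and 154.3 to 210.5 in Msr1-/-. In 6 of 7 wild type 3 was highest, and Gli1 had no read in some liver. The exception, Thy1, was highest in wild type 1 (46.0, against 34.5 in wild type 3). Quiescent stellate cell markers differed less, at 5202, 3829 to 4923 and 3578 to 4664, with wild type 3 highest in 8 of 11. The part of these cells in the collagen levels was not tested.

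Markers of other cell types also stood apart in wild type 3. Macrophage markers summed to 12979 in wild type 3, 5482 to 6689 in the other wild-type livers and 2943 to 4142 in Msr1-/-. Lyz2 alone gave 4949 in wild type 3 and 904 to 1451 in the other wild-type livers. Wild type 3 was highest in 9 of the 10 markers. Clec4f, the exception, stood there at 1845 against 1634 to 2638. The genotypes did not overlap for this sum or for the cholangiocyte sum below, where 7.29% of all tested single genes had no overlap. The share among sums of markers was not computed. None of the 10 macrophage markers was called in all livers (Trem2 was closest, limma adjusted p = 0.064), and without wild type 3 Clec4f, Trem2 and Lyz2 of 9 tested were called lower, where 4.91% of all tested genes were called in either direction. Cholangiocyte markers summed to 1675, 619.3 to 700.1 and 249.5 to 544.9, mostly through Spp1 again, so that this sum and that of activated myofibroblasts are not separate. Of the 3 tested, 1 fell, Sox9 (-1.45 ± 0.21, limma adjusted p = 0.0103), where 1.37% of all tested genes were called. Markers of sinusoidal endothelium were lower in wild type 3 (3875) than in the other wild-type livers (4371 to 4935), and those of other vessels were higher (1587 against 657.6 to 784.6). Of the latter sum Cd9 gave 760 in wild type 3 and 174 to 205 in the other wild-type livers. Cd9 is in the macrophage list too, so these 2 sums are not separate. All 5 tested vessel markers were highest in wild type 3, Cdh5 at 1.54 times the mean of the other wild-type livers. All 4 mesothelial markers were under the test's minimum, with sums of 37.66 in wild type 3 and at most 21.53 elsewhere. The summed hepatocyte markers, of which Alb is the largest part, were lower in wild type 3 than in every other liver, but Apoa1 was lowest in Msr1-/- 1. Among the tested collagens, wild type 3 was below the mean of the other wild-type livers for Col27a1, Col25a1, Col20a1, Col11a2, Col5a3, Col13a1 and Col18a1. These stood at 0.0991 to 0.711 times that mean, and Col15a1 at 0.995 times. Of them, Col5a3 was lowest in wild type 1. The part of cell make-up in this was not tested.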

How the data were processed

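The deposited values are a signal, the reads of a gene in a liver after division by that liver's size factor. Per the submitters' processing notes, STAR, HTSeq and DESeq2 were used with mm10 (no versions), and libraries came from a TruSeq v2 kit, per the labels' protocols. Values in a liver were whole multiples of 1 step within 0.01 reads (100% of values), which gave back reads for edgeR and DESeq2 as alternatives. All columns matched a labelled animal, and no 2 livers agreed within sampling noise. Read depth bounds counting error alone. The spread between animals limits each comparison.

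The main test was limma 3.58.1 (R 4.3.3) on log2(value + 1) with an intensity trend, genotype as the only term, a mean of 10 or more over 9 livers and Benjamini-Hochberg adjustment over all 12937 genes tested, called under 0.05. Permutation tests compared mean log2 values over all splits of the 9 livers, doubling the smaller tail. The script was tested on simulated counts with 100 genes changed 2-fold and 100 changed 4-fold. There limma and edgeR each called 48% of the 2-fold changes and DESeq2 67%. Of the 4-fold changes they called 87, 88 and 92%. False calls were 1.46% of the calls in limma, 1.45% in edgeR and 14.1% in DESeq2. A 2-fold change could thus be missed by the main test. Simulated counts were drawn independently for each gene, so no simulated liver stood apart over many genes as wild type 3 did. The rates therefore need not hold for these livers. Alternatives were pseudocounts 0.5 and 5, no filter, a mean of 50 or more, TMM, quantile scaling, edgeR 4.0.16, DESeq2 1.42.0, array weights, a replicate block and each liver left out, and, added after seeing the data, edgeR and DESeq2 without wild type 3.

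The members and all gene lists were chosen with earlier results of these data known. Collagen genes with a mean of 10 or more are named with values, in full from a mean of 50, for chains that share a trimer and where a gene was called. Of each other list up to 4 genes of smallest p could be named, and always Msr1, Tgfb1, Serpinh1, Lox, Acta2, Timp1, Lrat, Adgre1 and Trem2. Col5a2, Col11a2, Col25a1, Col6a6 and Col8a1 were given more fully after their values were seen. Of the genes always named, Timp1 stood at 24.7 ± 44.8 in wild type and 3.33 ± 3.50 in Msr1-/-, and Lrat at 329 ± 158 and 213 ± 54.1. Adgre1 stood at 299 ± 310.3 and 94.5 ± 16.9, and Trem2 at 64.9 ± 75.7 and 7.28 ± 3.29. Wild type 3 was highest for each of these, for Timp1 at 91.8 against 0 to 4.74 in the other wild-type livers. It stood at 561 against 205 to 275 for Lrat, 763 against 107 to 165 for Adgre1 and 178 against 20.9 to 33.8 for Trem2. In the same order the limma adjusted p values were 0.809, 0.379, 0.234 and 0.064. Without wild type 3 they were 0.482 for Lrat, 0.103 for Adgre1 and 0.024 for Trem2, and Timp1 was not tested. Positions, transcript lengths and coding sequences came from GENCODE M21 (GRCm38).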

Additional observations from a re-analysis of the deposited data

Results flagged for a closer look

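The 32 collagen genes, Msr1 and the sums, shares and ratios of collagens were each checked in both genotypes. In 12 of these 92 groups, 1 liver stood farther from the rest than Dixon's 95% critical value allows, and chance flags about 1 in 20 groups. In 8 of the 12 this liver was wild type 3, so these share an animal. Col1a1 stood at 563.3 in wild type 3 and at 48.1 to 132.8 in the other wild-type livers. Col1a2 stood there at 787.6 against 115.5 to 183.1, and Col3a1 at 2916 against 389.2 to 620.4. Col5a2 stood at 171.8 against 22.5 to 45.5, and Col6a3 at 225.1 against 50.3 to 79.7. Col8a1, which had a mean under 10, stood at 25.1 against 1.06 to 4.74. Of the collagen signal per kb, Col18a1 held 44.1% in wild type 3 and 67.1 to 70.3% in the other wild-type livers, and Col1a1, Col1a2, Col3a1 and Col5a2 together held 30.7% against 4.39 to 6.41%. Among the livers labelled Msr1-/-, Col14a1 was high in Msr1-/- 1 (582.9, where the other 4 lay between 526.0 and 540.2), in a gene whose values there were tightly grouped. Col25a1 was low in the same liver, at 1.06 against 8.22 to 10.02, which is 1 read. Col5a1 was high in Msr1-/- 3, at 102.3 against 63.1 to 74.2. The share of Col18a1 was high in Msr1-/- 5, at 72.7% against 63.7 to 65.2%.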

How the results depend on the processing

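No collagen gene was called under any of the alternatives run on all 9 livers or in the 9 limma fits that left out 1 liver each. For Col1a2 and Col3a1, DESeq2 on all 9 livers gave no adjusted p. Without wild type 3, 1 collagen gene (Col25a1, lower) was called by edgeR and by DESeq2. Over the whole table the calls moved with the setting. Counts out of 21 collagens and out of 12937 genes cannot be compared for this, since few calls fall in a short list. Genes higher in Msr1-/- numbered 86, against 307 with DESeq2, 277 with array weights, 304 with edgeR without wild type 3, 539 with DESeq2 without it, and 19 to 332 on leaving out 1 liver. Genes lower numbered 91, against 466, 254, 352 and 520 in the same settings, 58 with a mean of 50 or more, and 17 to 297 on leaving out 1 liver. With the animal number as a replicate block, 8 were higher and 0 lower, 0 collagens were called and their median was -0.23. Msr1-/- 5 has no wild-type animal of its number, so it added nothing to the genotype difference in that fit. The collagen median was also -0.23 without Msr1-/- 5. The block terms also left less information on the spread between animals. Same-numbered animals deviated from their genotype means with correlations of 0.025, -0.077, -0.1 and 0.22, and 0 of 4 wild-type animals correlated best with their own number. These values gave no sign of a pairing by number, but 4 correlations are too few to exclude it. Leaving out 1 liver, the collagen median ran from -0.50 to 0.07, and by class from -0.75 to 0.06 (fibrillar), -0.25 to 0.15 (basement membrane) and -0.30 to -0.11 (other). Without wild type 3 the median over all collagens and that over fibrillar collagens were both 0.05 in edgeR and both 0.06 in DESeq2.

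Signs changed for 7 collagen genes, none of them called. Without wild type 3, DESeq2 gave 0.10 for Col14a1, 0.06 for Col1a1, 0.06 for Col1a2, 0.09 for Col4a1 and 0.24 for Col5a2, and edgeR gave 0.09, 0.05, 0.05, 0.08 and 0.23. Col14a1 was 0.01 with array weights, Col20a1 0.00 with quantile scaling, and Col4a2 -0.03 with edgeR and with DESeq2. Leaving out 1 liver, the ranges were -0.30 to 0.11 for Col14a1, -1.10 to 0.07 for Col1a1, -0.87 to 0.05 for Col1a2, -0.45 to 0.36 for Col20a1, -0.47 to 0.12 for Col4a1, -0.14 to 0.19 for Col4a2 and -0.73 to 0.23 for Col5a2. The cause was not tested. How well differences could be detected in genes with a mean under 10 was not tested.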
